A study of Mus musculus with 9 samples.

Results

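The genes described here encode proteins that modify, fold and trim procollagen: the lysyl hydroxylases *Plod1*, *Plod2* and *Plod3*, the catalytic subunits of prolyl 4-hydroxylase *P4ha1*, *P4ha2* and *P4ha3*, the collagen chaperone *Serpinh1*, and the processing genes *Bmp1*, *Pcolce* and *Adamts2*. They were chosen by symbol and make up 10 of the 56748 genes in the table of counts. Of these 10, 9 passed the filter on low counts (0.5 CPM or more, here counts scaled by the plain library total, in 1 library or more), as did 18510 of all genes, and *P4ha3* did not. RNA of epididymal adipose tissue was sequenced from wild-type male C57BL/6J mice that were 8 weeks old when high-fat diet (HFD) began. The mice received HFD for 8 weeks (Pre), or the same 8 weeks of HFD and then standard diet (SD) for 1 week (WL1) or 2 weeks (WL2), with 3 libraries per phase. All 3 phases thus share the HFD feeding, Pre is the only control, and WL1 and WL2 mice were 1 and 2 weeks further from the start than Pre mice, so that time and diet cannot be told apart. No mice kept on HFD or on SD throughout were analysed here. The labels number the libraries without saying which came from separate mice, so p-values measure the spread between these libraries.

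Collagen chains are made in the endoplasmic reticulum, where prolyl 4-hydroxylase modifies prolines so that the triple helix is stable at body temperature, and lysyl hydroxylases modify lysines that later carry sugars or cross-links. The chaperone HSP47, the product of *Serpinh1*, binds the folded triple helix until it leaves the reticulum. After secretion, ADAMTS2 removes the amino-terminal and BMP1 the carboxy-terminal propeptide, the latter with the help of the enhancer encoded by *Pcolce*, and the trimmed molecules assemble into fibrils. In adipose tissue of obese mice, collagen deposited around adipocytes is known as adipose tissue fibrosis.

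The libraries held 16434450 to 22729072 counts. All CPM given below are TMM-scaled, that is, counts scaled by the library total times the TMM factor of the library. Mitochondrial genes took 3.15% to 3.57% of the counts at Pre, 1.86% to 2.03% at WL1 and 2.28% to 2.88% at WL2. Adipocyte markers, 9 genes, summed to 31163 to 38495 CPM at Pre, 22052 to 28267 at WL1 and 28784 to 33038 at WL2, so that WL1 lay below Pre without overlap, where 3 of 9 fell and 7 were lower at an unadjusted p under 0.05 (edgeR). The 5 epididymis markers summed to at most 0.231 CPM. Markers of fibroblasts, which make most fibrillar collagen, summed over 10 genes to 8852 to 12017 CPM at Pre, 10124 to 10613 at WL1 and 14052 to 18065 at WL2. At WL2 against Pre, 2 of 10 rose and none fell in edgeR, and limma on log2(FPKM + 1) called 1 rise. The list moved both ways there at an unadjusted p under 0.05 (edgeR), with 3 higher and 2 lower (11.5% and 14.4% of all tested genes). Of 5 smooth muscle markers, 1 fell at WL1 and 1 at WL2, and their sum went from 438 to 528 CPM at Pre to 218 to 277 at WL1 and 250 to 294 at WL2. The 8 macrophage markers summed to 1507 to 2694, 3045 to 5855 and 1694 to 3266 CPM. In each comparison 0 of 8 passed the adjusted threshold of edgeR. At an unadjusted p under 0.05 in edgeR, 4 were higher at WL1 against Pre (11.6% of all tested genes), and DESeq2 called 2 higher there. From WL1 to WL2, 5 were lower at an unadjusted p under 0.05 in edgeR (12.8% of all tested genes). Their median log2 fold change there was -0.76, and DESeq2 called none. Pre replicate 2 held 182 CPM of 4 B cell markers and the other libraries 3.65 to 16.4. Liver markers, 6 genes, summed to 8.37 to 86.4 CPM at Pre, 2.25 to 75.1 at WL1 and 3.78 to 6.25 at WL2. The part of these markers in the results was not tested. In bulk tissue, fewer cells of a type and less RNA per cell cannot be told apart.

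Each procollagen gene that passed the test went down, and none rose. After 1 week of SD, 1 of 9 tested genes fell, *Serpinh1*. After 2 weeks, 5 of 9 fell, *Serpinh1*, *Adamts2*, *Bmp1*, *Plod1* and *Plod3*. Between the first and the second week, *Plod1* and *Adamts2* fell. Calls rest on the edgeR quasi-likelihood test with Benjamini-Hochberg adjustment over 18510 genes and a threshold of 0.05. Of all tested genes, this called 4.69% lower at WL1 and 6.66% at WL2 against Pre, and 2.37% from WL1 to WL2. The median log2 fold change of the 9 genes was -0.16, -0.41 and -0.12 in these comparisons, where that of all tested genes was 0.02, 0.01 and -0.0014. Of the tested genes, 2.60%, 3.35% and 1.31% were higher. DESeq2 called 3, 5 and 2 of the 9 lower, with 7.48%, 9.04% and 6.19% of all genes, and limma on log2(FPKM + 1) 2, 5 and 2, with 5.08%, 6.49% and 1.71%. At an unadjusted p under 0.05 in edgeR, 3, 5 and 4 were lower (12.7%, 14.4% and 12.8% of all) and none was higher (11.6%, 11.5% and 8.56%). Libraries lay below those of the other phase without overlap for 4, 5 and 4 of the 9 genes (13.9%, 15.8% and 16.4% of all), and above them for 0, 0 and 1 (14.7%, 15.1% and 13.8%). The comparisons with Pre share the Pre libraries, and their values are therefore given side by side only. Both processing proteases and the chaperone were among the genes that fell by WL2, whereas no prolyl hydroxylase subunit was.

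**Figure D1:**
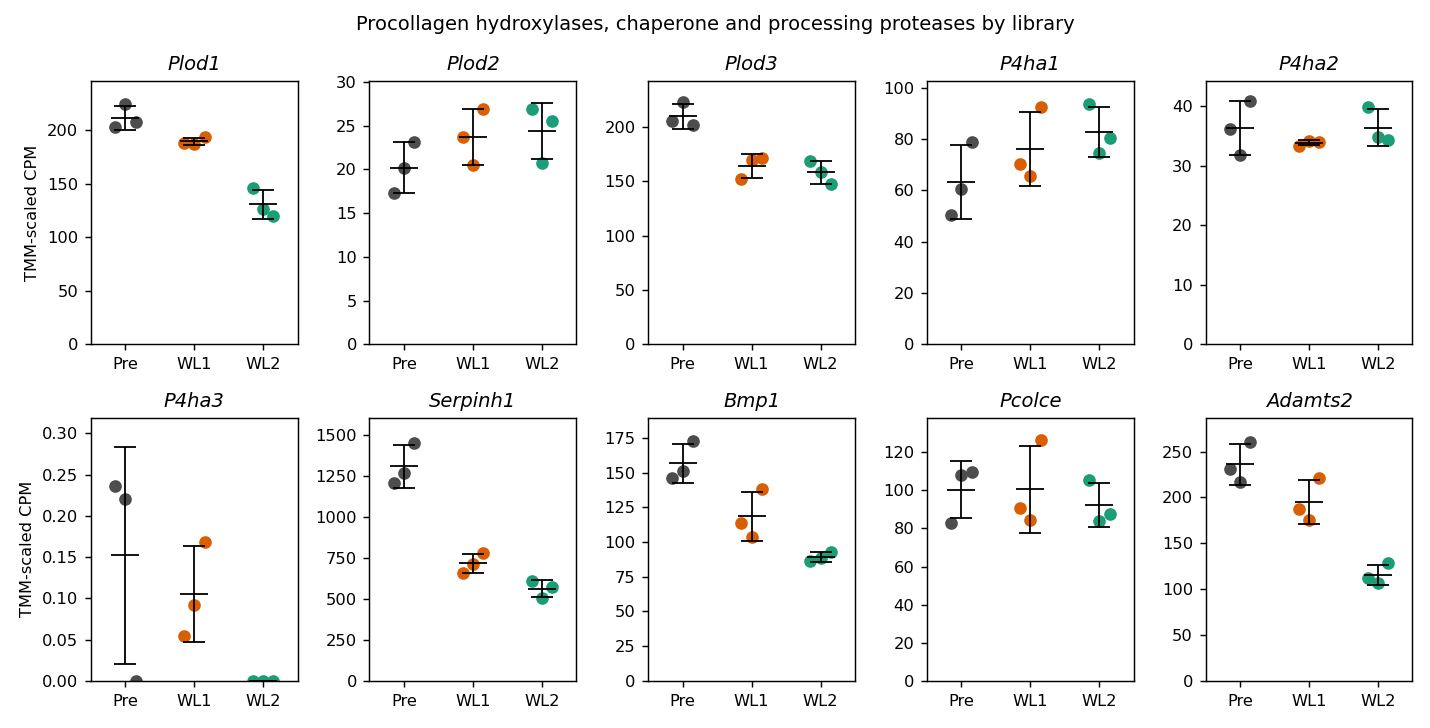
TMM-scaled CPM of the 10 genes in each library (points), with the mean and SD of each phase (lines), each panel on its own axis from 0. *Serpinh1*, *Bmp1* and *Plod1* step down from Pre to WL2 without overlap, whereas *P4ha1*, *P4ha2*, *Plod2* and *Pcolce* overlap between Pre and WL2, and *P4ha3* lies near 0.

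Levels of different genes were compared as FPKM, the fragments scaled by gene length and library total. *Serpinh1* had by far the highest mean FPKM of the group, 503 ± 50.1 (SD, n = 3) at Pre, 271 ± 22.9 at WL1 and 216 ± 17.2 at WL2, and exceeded 99.5% of the tested genes. At Pre the next were *Plod3* (43.6 FPKM), *Plod1* (29.4), *Pcolce* (24.6), *Adamts2* (23.7), *Bmp1* (16.6) and *P4ha1* (14.4), and *P4ha2* (5.47) and *Plod2* (3.52) were lowest among the tested genes. In this order the Pre libraries of *Pcolce* and *Adamts2* overlapped, and so did those of *Bmp1* and *P4ha1*, whereas other neighbours did not. At WL2 *P4ha1* (18.9 FPKM) was higher than *Adamts2* (11.6) and *Bmp1* (9.44), each of which had been higher at Pre. Of the summed FPKM of the 10 genes, *Serpinh1* made up 75.7% ± 0.91 at Pre (SD, n = 3), and this share was 65.7% ± 1.16 at WL1 and 63.6% ± 1.15 at WL2.

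The 250 bases before the start site, from RefSeq on GRCm38.p6, were read for the 8 genes that the sequence table holds, all but *Plod2* and *Bmp1*. Members of both hydroxylase families are known targets of the hypoxia-inducible factors, whose core site is ACGTG or GCGTG. The windows of *Serpinh1* and *Adamts2*, which fell most at WL2 against Pre, are shown beside those of *Plod3*, which fell least, and *P4ha1*, which did not pass the test, with each core site, on either strand, in capitals.
*Serpinh1*, chr7:99353240-99353489, minus strand: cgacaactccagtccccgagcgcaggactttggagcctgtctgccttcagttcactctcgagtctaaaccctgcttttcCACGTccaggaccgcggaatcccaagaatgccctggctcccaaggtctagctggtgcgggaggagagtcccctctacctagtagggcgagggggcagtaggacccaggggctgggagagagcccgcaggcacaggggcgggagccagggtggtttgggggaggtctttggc
*Adamts2*, chr11:50601835-50602084, plus strand: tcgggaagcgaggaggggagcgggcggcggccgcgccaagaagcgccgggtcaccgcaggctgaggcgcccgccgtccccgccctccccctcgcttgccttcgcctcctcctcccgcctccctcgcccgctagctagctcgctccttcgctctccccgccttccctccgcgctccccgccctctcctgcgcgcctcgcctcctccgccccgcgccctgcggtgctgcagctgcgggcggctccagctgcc
*Plod3*, chr5:136986769-136987018, plus strand: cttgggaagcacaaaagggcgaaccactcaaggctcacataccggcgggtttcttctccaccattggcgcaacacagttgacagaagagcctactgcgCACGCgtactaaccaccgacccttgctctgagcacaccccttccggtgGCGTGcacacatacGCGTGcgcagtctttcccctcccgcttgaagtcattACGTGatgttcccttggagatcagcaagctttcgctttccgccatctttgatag
*P4ha1*, chr10:59323046-59323295, plus strand: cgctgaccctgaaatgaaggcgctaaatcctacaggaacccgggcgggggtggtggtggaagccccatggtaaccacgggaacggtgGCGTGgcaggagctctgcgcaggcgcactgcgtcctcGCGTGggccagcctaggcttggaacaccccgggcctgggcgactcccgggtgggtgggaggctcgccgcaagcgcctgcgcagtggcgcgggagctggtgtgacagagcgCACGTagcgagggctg
The core was found 1 time at *Serpinh1*, 4 times at *Plod3* and 3 times at *P4ha1*, and the window of *Adamts2* had none. Of the windows not shown, *P4ha2* had 3 matches, *Plod1* and *Pcolce* had 1 each and *P4ha3* had 0. For comparison, 38.6% of 32851 RefSeq promoters of the same length hold at least 1 match. The core was thus present beside genes that fell and beside genes that did not pass the test, and absent beside 1 gene that fell. The GC box GGGCGG occurred 5 times at *Adamts2* and at *P4ha3*, 2 times at *Plod1* and *P4ha2*, 1 time at *P4ha1*, *Serpinh1* and *Pcolce*, and not at *Plod3* (32.7% of all promoters, both strands). The paired heat shock half-sites GAANNTTC were in none of the 8 windows and in 6.69% of all promoters, CCAAT was found at *Plod3* only (33.8% of all) and TATAAA at *Plod1* only (12.4% of all), each on both strands. A match of letters is a description and not a binding site.

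*Serpinh1* (ENSMUSG00000070436, chromosome 7, 98994583 to 99002446, minus strand, coordinates as deposited, with no build settled) showed the largest fall of the group at WL2 against Pre, and was the only one of the 9 tested genes that edgeR called at WL1. DESeq2 also called *Plod3* and *Bmp1* there, and limma *Plod3*. Its CPM were 1204, 1268 and 1452 in the Pre libraries, 658, 711 and 779 in the WL1 libraries and 610, 507 and 571 in the WL2 libraries. Every WL1 and WL2 library lay far below the lowest Pre library, and the highest WL2 library was below the lowest WL1 library. The level at WL1 was 0.547 times that at Pre (log2 fold change -0.87, SE 0.124, edgeR, Benjamini-Hochberg adjusted p = 0.00344) and at WL2 0.430 times (-1.22, SE 0.125, adjusted p = 0.000258 from edgeR with Benjamini-Hochberg adjustment). Both falls passed in each of the 9 fits that left out 1 library. The further step from WL1 to WL2 did not pass (-0.35, SE 0.123, edgeR, Benjamini-Hochberg adjusted p = 0.135), although the libraries did not overlap.

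The chaperones that serve secreted proteins in general, among them *Hspa5*, *Hsp90b1* and *Calr*, gave a reference for *Serpinh1*, which is specific to collagen. In each of the 3 comparisons 0 of 13 passed the threshold of edgeR, and 0 of 13 that of DESeq2 and of limma. At an unadjusted p under 0.05 by edgeR, none was lower at WL1 against Pre, 1 at WL2 against Pre and 2 at WL2 against WL1, and none was higher. Their median log2 fold changes were 0.25, -0.09 and -0.26. Whether *Serpinh1* differed from them was not tested.

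Of the 3 lysyl hydroxylases, *Plod1* and *Plod3* fell by WL2 and *Plod2* did not pass the test. *Plod1* (ENSMUSG00000019055, chromosome 4, 147994210 to 148021224, minus strand), which modifies lysines of the helix, had 203, 224 and 207 CPM at Pre, 188, 187 and 193 at WL1 and 145, 126 and 120 at WL2. The WL1 libraries lay just below the Pre libraries and the WL2 libraries well below both, with the 3 phases free of overlap. *Plod1* fell to 0.617 times the Pre level at WL2 (log2 fold change -0.70, SE 0.105, edgeR, Benjamini-Hochberg adjusted p = 0.00249) and passed in each of the 9 fits that left out 1 library. At WL1 the difference from Pre was -0.16 (95% interval -0.39 to 0.07, edgeR, Benjamini-Hochberg adjusted p = 0.380). From WL1 to WL2 it fell by 0.54 on the log2 scale (SE 0.104, edgeR, Benjamini-Hochberg adjusted p = 0.0259), a call that was lost without WL1 replicate 1, 2 or 3 or WL2 replicate 2 or 3 (log2 fold changes over all 9 such fits -0.62 to -0.48).

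*Plod3* (ENSMUSG00000004846, chromosome 5, 137015873 to 137025502, plus strand), whose product also transfers sugars to hydroxylysine, had 205, 223 and 202 CPM at Pre, 152, 170 and 171 at WL1 and 169, 158 and 148 at WL2. Its level was below every Pre library from the first week on and then overlapped between WL1 and WL2. It fell to 0.755 times the Pre level at WL2 (-0.41, SE 0.102, edgeR, Benjamini-Hochberg adjusted p = 0.0329), and at WL1 was at 0.783 times (-0.35, SE 0.102, edgeR, Benjamini-Hochberg adjusted p = 0.0649). The call at WL2 was lost without Pre replicate 1 or 2, WL1 replicate 2, or WL2 replicate 2 or 3 (-0.45 to -0.36 over the 9 fits), whereas DESeq2 also called the difference at WL1 (adjusted p = 0.00667). *Plod3* overlaps *Znhit1* on the other strand, whose level was 20.1% of its CPM, and since no source used here states whether the counting used strand, reads of the pair cannot be told apart.

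*Plod2* (ENSMUSG00000032374, chromosome 9, 92424276 to 92490481, plus strand), which modifies lysines of the telopeptides and so favours stable cross-links, had 17.3, 20.2 and 23.2 CPM at Pre, 23.8, 20.6 and 27.0 at WL1 and 26.9, 20.7 and 25.6 at WL2. The phases overlapped throughout. Its difference from Pre was 0.23 at WL1 (95% interval -0.12 to 0.58, edgeR, Benjamini-Hochberg adjusted p = 0.398) and 0.27 at WL2 (-0.08 to 0.62, edgeR, Benjamini-Hochberg adjusted p = 0.307). A fall of the size of that of *Plod1* lies outside the interval at WL2. As a share of the summed FPKM of the 3 lysyl hydroxylases, *Plod2* took 4.07%, 4.35% and 5.4% at Pre, 6.70%, 5.51% and 7.0% at WL1 and 7.79%, 6.68% and 8.60% at WL2. Each WL1 and WL2 library was above each Pre library in this share. The share of *Plod1* was 38.4% ± 0.198 at Pre, 40.8% ± 1.27 at WL1 and 32.7% ± 0.819 at WL2, and that of *Plod3* 57.0% ± 0.853, 52.8% ± 1.68 and 59.6% ± 1.21 (SD, n = 3). Shares were described without a test, since an exact permutation test of 3 against 3 libraries cannot give a p below 0.1.

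**Figure D2:**
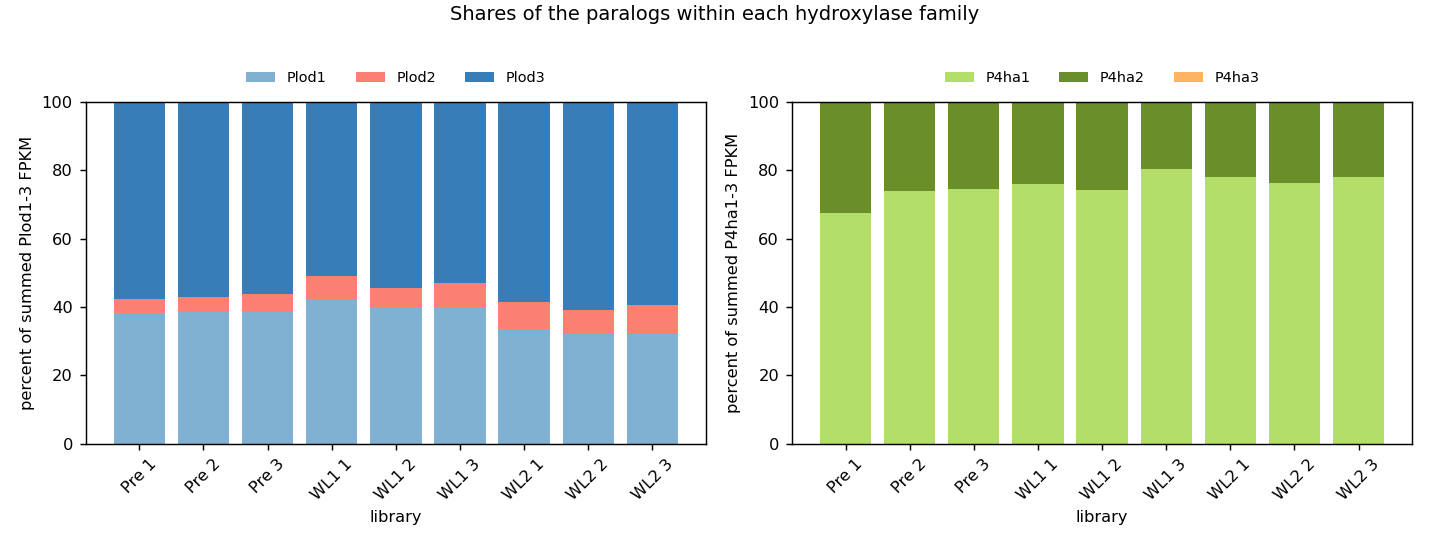
Share of each paralog in the summed FPKM of the lysyl hydroxylases *Plod1* to *Plod3* (left) and of the prolyl 4-hydroxylase subunits *P4ha1* to *P4ha3* (right), in percent, for each of the 9 libraries. *Plod2* goes from 4.07% to 5.4% at Pre to 6.68% to 8.60% at WL2, and *P4ha1* makes up most of the prolyl hydroxylase subunits in every library while *P4ha3* is too low to be visible.

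None of the catalytic subunits of prolyl 4-hydroxylase passed the test in any comparison. *P4ha1* (ENSMUSG00000019916, chromosome 10, 59159118 to 59209126, plus strand), the subunit of the most widespread form of the enzyme, had 50.4, 60.6 and 78.7 CPM at Pre, 70.2, 65.6 and 92.7 at WL1 and 93.7, 74.6 and 80.5 at WL2. The highest Pre library reached into the range of WL2. Its difference from Pre was 0.27 at WL1 (95% interval -0.14 to 0.67, edgeR, Benjamini-Hochberg adjusted p = 0.403) and 0.39 at WL2 (-0.02 to 0.80, edgeR, Benjamini-Hochberg adjusted p = 0.210). *P4ha2* (ENSMUSG00000018906, chromosome 11, 53990921 to 54022491, plus strand) had 36.2, 31.9 and 40.9 CPM at Pre, 33.4, 34.2 and 34.0 at WL1 and 39.9, 34.9 and 34.3 at WL2. Each WL2 library lay just above each WL1 library, whereas Pre overlapped both. *P4ha2* had an interval of -0.26 to 0.26 around a log2 fold change of 0.0023 at WL2 against Pre (edgeR, Benjamini-Hochberg adjusted p = 0.993). A fall as large as that of *Serpinh1* or *Adamts2* lies outside the intervals of both subunits.

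The FPKM of *P4ha1* were 2.11, 2.88 and 2.92 times those of *P4ha2* in the Pre libraries, 3.19, 2.91 and 4.14 times at WL1 and 3.56, 3.24 and 3.56 times at WL2, and the ratio was higher in every WL2 library than in every Pre library. *P4ha3* (ENSMUSG00000051048, chromosome 7, 99934727 to 99968906, plus strand) had 4, 4 and 0 reads at Pre, 1, 2 and 3 at WL1 and 0 in each WL2 library. A count of 0 allows up to 3 reads, or 0.164 to 0.174 CPM in the WL2 libraries. Pre replicates 1 and 2 lay above this limit with 0.236 and 0.220 CPM, and Pre replicate 3 had 0. *P4ha3* did not pass the filter and was not tested, so a difference is neither shown nor excluded at this depth. Such limits cover counting error only. *P4hb*, the shared partner subunit of the enzyme, did not pass against Pre in edgeR (-0.34 at WL2, SE 0.117, Benjamini-Hochberg adjusted p = 0.0940), but its WL2 libraries lay below Pre without overlap and DESeq2 called it lower there (adjusted p = 0.0296).

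Since *Plod2* and the *P4ha* genes are known to respond to low oxygen, 12 other hypoxia response genes were read beside them. At WL1 against Pre 1 of 12 rose and 1 fell (2.60% and 4.69% of all tested genes). At WL2 against Pre 2 rose and 3 fell (3.35% and 6.66%). At WL2 against WL1 1 rose and none fell (1.31% and 2.37%), and the medians of these comparisons were -0.09, -0.03 and -0.07. *Ndrg1* (0.91 at WL2 against Pre) and the vasodilator peptide gene *Adm* (0.80) rose, and the glycolytic genes *Pfkfb3* (-1.17) and *Ldha* (-0.89) fell. Single genes of the list thus moved in both directions, in edgeR with the same threshold. DESeq2 called 1 higher and 3 lower at WL1 against Pre, and 2 higher and 3 lower at WL2 against Pre. The sum of the 12 genes was 2698 to 3199 CPM at Pre, 2082 to 2363 at WL1 and 1933 to 2064 at WL2. Each phase thus lay below the one before it without overlap in this sum.

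Both processing proteases fell by WL2. *Adamts2* (ENSMUSG00000036545, chromosome 11, 50492911 to 50698400, plus strand) had 231, 217 and 260 CPM at Pre, 187, 176 and 222 at WL1 and 112, 107 and 128 at WL2. WL1 overlapped Pre, and every WL2 library was far below every other library. The level at WL2 was 0.490 times that at Pre (-1.03, SE 0.128, edgeR, Benjamini-Hochberg adjusted p = 0.000837), which passed in each of the 9 fits that left out 1 library. At WL1 the difference from Pre was -0.28 (SE 0.127, edgeR, Benjamini-Hochberg adjusted p = 0.212), and from WL1 to WL2 *Adamts2* fell by 0.75 (SE 0.127, edgeR, Benjamini-Hochberg adjusted p = 0.0170). This last call was lost without WL1 replicate 3 (-0.63) or WL2 replicate 2 (-0.70).

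*Bmp1* (ENSMUSG00000022098, chromosome 14, 70711998 to 70757674, minus strand) had 146, 151 and 173 CPM at Pre, 114, 104 and 138 at WL1 and 86.2, 88.7 and 92.7 at WL2. The phases did not overlap, and the steps were of similar size in both weeks. It fell to 0.569 times the Pre level at WL2 (-0.81, SE 0.125, edgeR, Benjamini-Hochberg adjusted p = 0.00278), again in each of the 9 fits. Neither single step passed, with -0.40 at WL1 against Pre (edgeR, Benjamini-Hochberg adjusted p = 0.0770) and -0.41 at WL2 against WL1 (edgeR, Benjamini-Hochberg adjusted p = 0.0927). Without WL1 replicate 3, the library with the highest WL1 value, the first step passed (-0.54, edgeR, Benjamini-Hochberg adjusted p = 0.0496), as it did with DESeq2 (adjusted p = 0.0324).

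*Pcolce* (ENSMUSG00000029718, chromosome 5, 137603365 to 137612046, minus strand), the enhancer of BMP1, had 82.9, 108 and 109.5 CPM at Pre, 90.5, 84.3 and 127 at WL1 and 105, 84.0 and 87.3 at WL2. The phases overlapped in all 3 comparisons. Its difference at WL2 against Pre was -0.12 (95% interval -0.50 to 0.27, edgeR, Benjamini-Hochberg adjusted p = 0.703), an interval that does not reach the fall of *Bmp1*. The second enhancer gene, *Pcolce2*, had 158, 139 and 145 CPM at Pre, 71.0, 67.8 and 74.6 at WL1 and 48.2, 51.4 and 52.4 at WL2. It fell at WL1 (-1.05, SE 0.0969, edgeR, Benjamini-Hochberg adjusted p = 0.000433) and at WL2 against Pre (-1.54, SE 0.0983, edgeR, Benjamini-Hochberg adjusted p = 1.51e-05), in each of the 9 fits that left out 1 library. The difference between the enhancer genes was not tested.

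**Figure D3:**
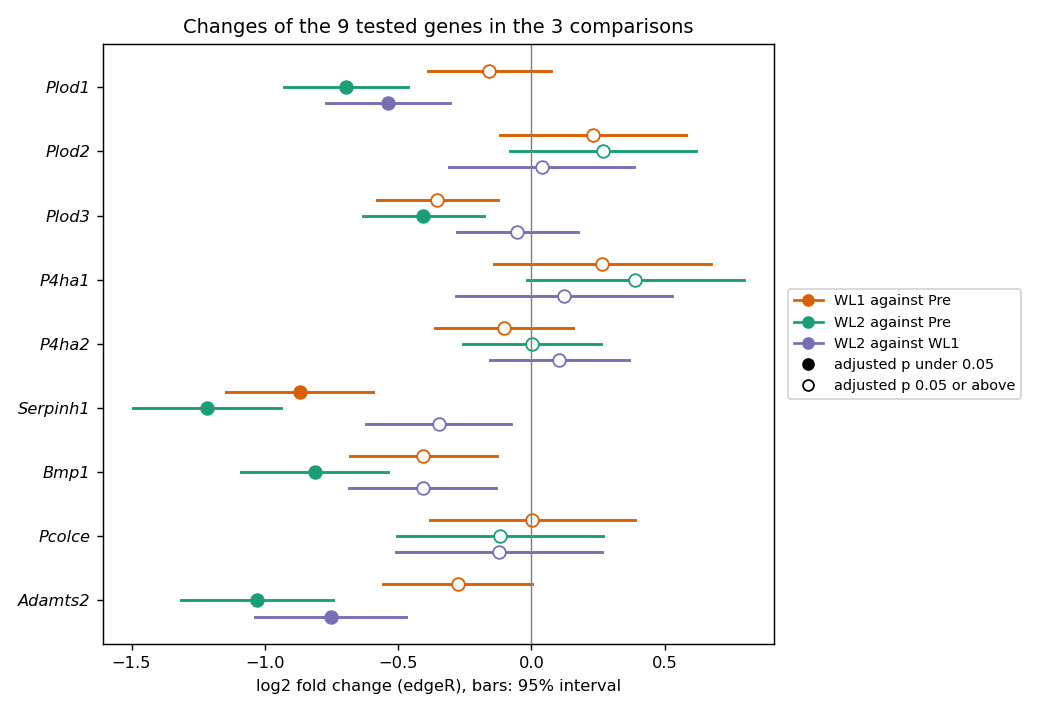
Log2 fold changes of the 9 tested genes from edgeR (points) with 95% intervals (bars) for WL1 against Pre, WL2 against Pre and WL2 against WL1, filled where the adjusted p was under 0.05. The filled points lie to the left of 0, from -0.41 for *Plod3* to -1.22 for *Serpinh1*, and the intervals of *P4ha1*, *P4ha2*, *Plod2* and *Pcolce* include 0.

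Other genes of collagen maturation, 21 in all of which 19 were tested, were read in the same fits. At WL1 against Pre 3 of 19 fell and none rose (4.69% and 2.60% of all tested genes). At WL2 against Pre 4 fell and 1 rose (6.66% and 3.35%). At WL2 against WL1 4 fell and 1 rose (2.37% and 1.31%), and the medians of these comparisons were -0.02, -0.26 and -0.10. The genes that fell at both weeks against Pre were *P3h1*, *Pcolce2* and *Tmem38b*. *P3h1*, a prolyl 3-hydroxylase, had 77.5, 74.0 and 85.7 CPM at Pre and 37.8, 41.6 and 43.6 at WL2, without overlap. It fell by 0.49 at WL1 (SE 0.105, edgeR, Benjamini-Hochberg adjusted p = 0.0231) and by 0.95 at WL2 (SE 0.106, edgeR, Benjamini-Hochberg adjusted p = 0.000446), the first of which was lost without Pre replicate 1 or 3 or WL1 replicate 1 or 3 (-0.54 to -0.42 over the 9 fits). *Crtap* and *Ppib*, whose products form a complex with that of *P3h1*, did not pass in any comparison.

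*Tmem38b*, an ion channel of the endoplasmic reticulum whose loss causes brittle bones, fell by 0.59 at WL1 (SE 0.113, edgeR, Benjamini-Hochberg adjusted p = 0.0136) and by 1.08 at WL2 against Pre (SE 0.114, edgeR, Benjamini-Hochberg adjusted p = 0.000322). The first of these was lost without WL1 replicate 1 (-0.56). *P3h4*, which works in a complex that helps to hydroxylate lysines, was the only listed maturation gene that rose, with 10.8, 17.0 and 16 CPM at Pre, 15.1, 14.8 and 13.1 at WL1 and 22.8, 25.5 and 30.6 at WL2. Every WL2 library was above all others. Its rise was 0.85 at WL2 against Pre (SE 0.181, edgeR, Benjamini-Hochberg adjusted p = 0.0157), lost without WL2 replicate 2 (0.87) or 3 (0.73). *Tll2*, a relative of *Bmp1*, also fell at WL2 (-3.47, edgeR, Benjamini-Hochberg adjusted p = 0.0382) but rests on 78 reads at Pre and 6 at WL2, and was lost without Pre replicate 2 or 3 or any WL2 library (-4.42 to -2.91).

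*Colgalt1*, the galactosyltransferase that acts on hydroxylysine, had its highest values at WL1, with 151, 175 and 173 CPM at Pre, 202, 221 and 273 at WL1 and 170, 121 and 126 at WL2. The WL1 libraries lay above all others. It fell from WL1 to WL2 (-0.74, SE 0.159, edgeR, Benjamini-Hochberg adjusted p = 0.0357), and at WL1 against Pre did not pass (0.48, edgeR, Benjamini-Hochberg adjusted p = 0.0965). When WL1 was set against the average of Pre and WL2, a contrast added after the data were seen, *Colgalt1* was higher (0.61, edgeR, Benjamini-Hochberg adjusted p = 0.0362), which held in 2 of the 9 fits that left out 1 library, and none of the 9 procollagen genes passed it, where 2.81% of all tested genes were higher and 1.77% lower. The 5 calls at WL2 against WL1 (*P3h1*, *Pcolce2*, *Tmem38b*, *Colgalt1* and *P3h4*) fell to 0 when any WL1 library or WL2 replicate 2 or 3 was left out.

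**Figure D4:**
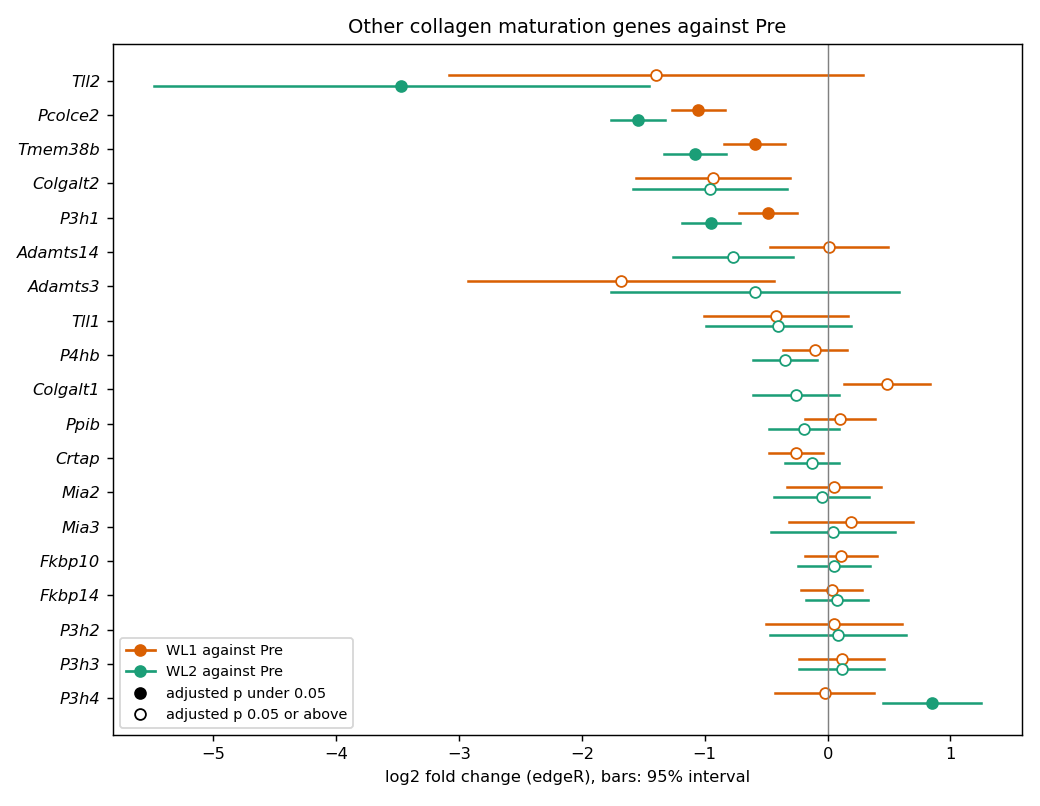
Log2 fold changes from edgeR with 95% intervals for the 19 tested genes of the list of other collagen maturation genes, at WL1 (orange) and WL2 (green) against Pre, filled where the adjusted p was under 0.05. *Pcolce2*, *Tmem38b* and *P3h1* are filled at both weeks to the left of 0, *Tll2* has the widest interval, and *P3h4* is filled to the right at WL2.

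The list of collagen chains holds fibrillar chains, which ADAMTS2 and BMP1 trim, beside chains of basement membrane and microfibrillar collagens. Of 14 chains, 8 fell at WL1 against Pre, 11 at WL2 against Pre and 9 at WL2 against WL1 (4.69%, 6.66% and 2.37% of all tested genes). None of the chains rose, and their medians were -0.56, -1.34 and -0.85. *Col6a2* (-1.95 at WL2 against Pre), of the microfibrillar collagen around adipocytes, and *Col15a1* (-1.88), of the basement membrane zone, fell most. The main fibrillar chains lay on average close to Pre at WL1, with *Col1a1* at 1.06 times, *Col1a2* at 1.09 times and *Col3a1* at 1.00 times, all with overlap. The libraries varied widely, with summed FPKM of these 3 chains of 288, 413 and 401 at Pre and 324, 275 and 528 at WL1. The average at WL1 thus leans on replicate 3. At WL2 *Col3a1* fell (-0.89, edgeR, Benjamini-Hochberg adjusted p = 0.0416), and *Col1a1* (-0.87, edgeR, Benjamini-Hochberg adjusted p = 0.0505) and *Col1a2* (-0.49, edgeR, Benjamini-Hochberg adjusted p = 0.163) did not pass. The count at WL1 against Pre went to 5 without Pre replicate 2 or WL1 replicate 1 or 2. From WL1 to WL2 it was 4 when WL1 replicate 3 was left out, and 0 or 5 when WL2 replicate 2 or 3 was. The summed FPKM of the 14 chains was 2144 ± 173 at Pre, 1401 ± 195 at WL1 and 805 ± 72.2 at WL2, and that of the 10 procollagen genes 664 ± 59.8, 413 ± 37.0 and 339 ± 23 (SD, n = 3).

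Levels relative to the collagen chains were described by dividing each gene's FPKM by the summed FPKM of the 14 chains in the same library, which does not depend on the scaling of the libraries. Per 1000 FPKM of collagen chains, *P4ha1* had 5.89, 6.27 and 7.91 FPKM at Pre, 11.4, 12.1 and 13.0 at WL1 and 28.2, 21.8 and 21.0 at WL2. Each phase lay above the one before it without overlap, and the mean at WL2 was 3.54 times that at Pre. The means of *Plod2* went from 1.64 to 2.91 and 5.29 (3.23 times), those of *P4ha2* from 2.56 to 3.63 and 6.85, and those of *Pcolce* from 11.4 to 17.3 and 28.3. Among the genes that fell, the ratio moved less, from 11.1 to 13.8 and 14.4 for *Adamts2*, from 7.74 to 8.82 and 11.7 for *Bmp1*, from 13.7 to 18.7 and 22.7 for *Plod1* and from 20.4 to 24.3 and 41.2 for *Plod3*. *Serpinh1* had 237, 221 and 246 FPKM per 1000 at Pre, 180, 221 and 185 at WL1 and 309, 250 and 250 at WL2, so that the ratio overlapped between Pre and WL1 and was above Pre in each WL2 library.

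The ratios depended on which chains were summed. *Col1a1*, *Col1a2* and *Col3a1* made up 17.0% of the FPKM of the 14 chains at Pre, 26.3% at WL1 and 26.3% at WL2, and their sum was 367 ± 69.2, 376 ± 134 and 211 ± 13.0 FPKM (SD, n = 3). Over these 3 chains alone, a choice made after the data were seen, *P4ha1* had 39.4 FPKM per 1000 at Pre, 47.3 at WL1 and 89.6 at WL2 (means), and the ratios of *Plod2*, *P4ha2* and *Pcolce* were 2.08, 1.70 and 1.59 times those at Pre by WL2. For these 4 genes, none of which had passed the test, WL2 lay above Pre without overlap with either sum. The sums themselves were at 0.376 times (14 chains) and 0.573 times (3 chains) the Pre mean at WL2. A gene whose FPKM did not change therefore rises in both ratios. How many of all genes did so was not counted. *Serpinh1* turned, with means of 1393 at Pre, 770 at WL1 and 1025 at WL2, and both weeks lay below Pre without overlap. The mean of *Adamts2* also turned, from 66.2 at Pre to 54.1 and 55.2, and that of *Bmp1* was 0.747 times the Pre mean at WL1 and 0.977 times at WL2. At WL2 *Adamts2*, *Bmp1*, *Plod1* (1.05 times Pre) and *Plod3* (1.29 times) overlapped Pre. The direction of the ratio thus was not settled for the genes that fell. For *Plod1* and *Plod3* the means were higher at WL2 with either sum. Over the 3 chains, however, both overlapped Pre at WL2, and their means at WL1 were 0.909 and 0.792 times those at Pre. On its own, a ratio of this kind shows unequal change and not which of its terms changed.

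**Figure D5:**
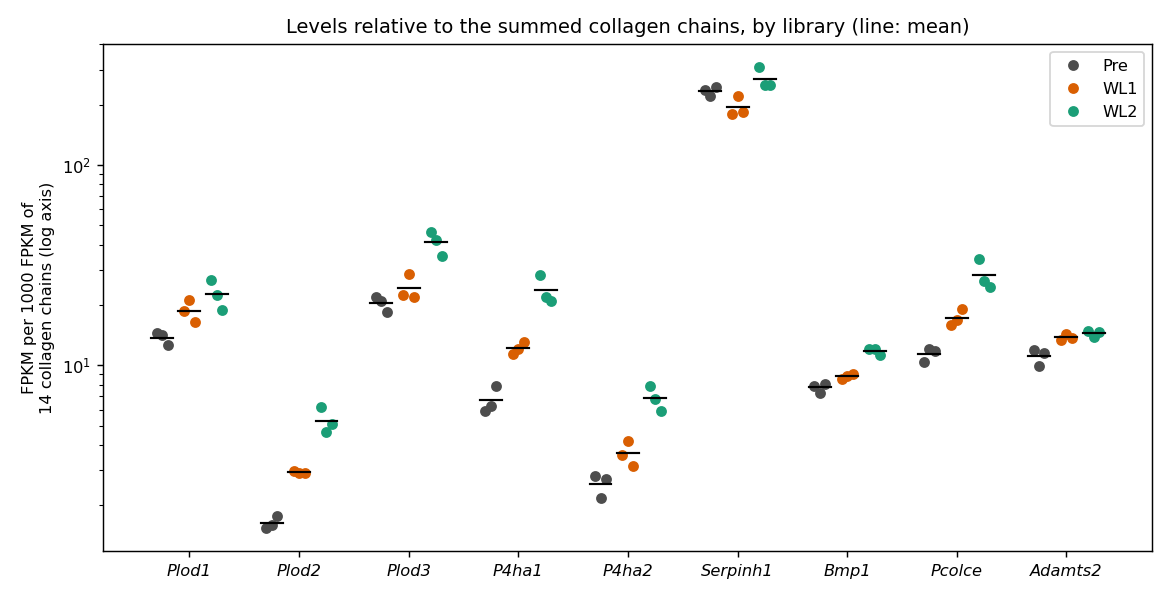
FPKM of each of the 9 tested genes per 1000 summed FPKM of 14 collagen chains in the same library (points, log axis), with the mean of each phase (line). *P4ha1* and *Plod2* show the widest steps, 3.54 and 3.23 times from Pre to WL2, and *Serpinh1* the narrowest, 1.15 times, which turned to 0.736 times when only *Col1a1*, *Col1a2* and *Col3a1* were summed. The summed FPKM of the 14 chains was itself at 0.376 times the Pre mean at WL2.

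The mean profile of the 9 tested genes over the 9 libraries, each gene scaled to its own mean and spread, was compared with that of 18501 other genes by the root mean square difference. The closest were *Mgam* (0.444), *Fcrlb* (0.445), *Dnajb13* (0.464), *Ssr1* (0.474) and *Gm49336* (0.475). The procollagen genes themselves lay between 0.574 (*Bmp1*) and 1.03 (*P4ha1*) from their own mean, so that these 5 genes were closer to it than any of the 9 was. The 5 were picked as the nearest of 18501, whereas the 9 were not chosen for closeness. *Fcrlb* had only 0 to 0.738 CPM and *Mgam* 0.510 to 3.92 CPM. Of the 5, only *Mgam* was called, at WL2 against Pre (edgeR, Benjamini-Hochberg adjusted p = 0.0486).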

How the data were processed

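The authors deposited raw gene counts and, separately, FPKM values (scaled by them to gene length and library total) for 9 libraries of epididymal adipose tissue (total RNA, RNeasy MiniElute cleanup, libraries by a service provider). The submitters' processing notes name HISAT2, HISAT, TopHat2, CASAVA, GRCm38 and mm10, without role or order. For the counting program, the strand setting and the annotation: not given in the sources used here. Coordinates in the deposited table matched those of GENCODE M21 (GRCm38) for 1472 of 52073 shared genes and for 0 of the 10 described, so gene coordinates are given without a build. A total of 0 columns matched no sample.

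The main test, on genes reaching 0.5 CPM (before TMM scaling) in 1 library or more, was that of edgeR 4.0.16 in R 4.3.3 (glmQLFit, glmQLFTest, TMM factors from 0.933 to 1.07, 1 model over 9 libraries, no covariates), with Benjamini-Hochberg adjustment over 18510 genes and a threshold of 0.05. Alternatives were DESeq2 1.42.0, limma 3.58.1 on log2(FPKM + 1) and log2(FPKM + 0.1), other filters and scalings, the replicate number as a block, the compared phases alone, and each library left out in turn. On simulated counts of 18510 genes, edgeR recovered 72 of 200 genes changed 2-fold at WL1 against Pre (7.69% false calls), 83 of 200 at WL2 against Pre (6.74%) and 181 of 400 at WL2 against WL1 (6.70%). The changed genes were drawn at random from all tested genes, those with low counts included. Many changes of that size are thus missed over all genes, whereas the rate at the levels of the procollagen genes was not measured. No pair of libraries of a phase agreed within counting error (chi-square over degrees of freedom 9.26 to 49.7).

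The members, lists and tests were chosen with earlier results of these data known. Named genes are the 10 members, each gene of the maturation list past the threshold in a comparison, and from the collagen chain, hypoxia and general chaperone lists up to 2 genes with the largest fall and 2 with the largest rise past the threshold at WL2 against Pre, while *Hspa5*, *Hsp90b1*, *Calr*, *P4hb*, *Crtap*, *Ppib*, *Col1a1*, *Col1a2*, *Col3a1* and the overlapping *Znhit1* were named in addition, after their values were seen. Of other marker lists, 3 of 9 adipocyte markers fell at WL1 and 2 at WL2 against Pre, and none of the 7 endothelial, 6 mesothelial, 5 T cell or 4 B cell markers passed in edgeR (at an unadjusted p under 0.05, 6 mesothelial markers were higher at WL2 than at WL1, 2 T cell markers lower at WL2 and 3 B cell markers lower at WL1 than at Pre, and DESeq2 called 1 of these, a T cell marker, and gave no adjusted p for the B cell markers). Among 6 liver markers, 1 fell at WL2 against Pre in edgeR and 2 in DESeq2. All 6 were lower there at an unadjusted p under 0.05 in edgeR, with a median log2 fold change of -4.15. From WL1 to WL2, 4 of them were lower at an unadjusted p under 0.05 in edgeR.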

Additional observations from a re-analysis of the deposited data

How the results depend on the processing

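Among the procollagen genes, *Serpinh1* at WL1 and WL2 against Pre and *Plod1*, *Bmp1* and *Adamts2* at WL2 against Pre kept their direction and call under every alternative run. Over the log2 fold changes of single named genes, 1188 alternative values kept side and direction, 93 lost the threshold, 15 gained it and 45 changed sign. The numbers of genes called and the ratios to the chains are not part of this tally and are given below. Low counts limit *P4ha3* and *Tll2*, and total counts without scaling factors shifted the median of all genes by 0.0989, 0.149 and 0.050 in the 3 comparisons (WL1 and WL2 against Pre, and WL2 against WL1). Where no cause is named for a change, the cause was not tested.

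Procollagen genes changed at WL1 against Pre numbered 1, but 3 with DESeq2, 2 with the filter on 3 libraries, upper quartile scaling, and limma on log2(FPKM + 1), on log2(FPKM + 0.1) or without filter, and 1 to 2 with 1 library left out. At WL2 against WL1 they numbered 2, but 1 with limma without filter and 0 to 2 with 1 library left out. Other maturation genes numbered 1 to 3 at WL1 against Pre, 3 to 6 at WL2 against Pre and 0 to 5 at WL2 against WL1 with 1 library left out, and 8 with DESeq2 at WL2 against Pre. At WL2 against WL1 they numbered 3 with RLE, upper quartile or no scaling and with limma with either pseudocount, and 0 with limma without filter. Collagen chains numbered 5 at WL1 against Pre and 4 from WL1 to WL2 with limma without filter, and 5 to 8 and 0 to 10 with 1 library left out. Of all genes, DESeq2 called 2292 at WL1 against Pre and 1838 from WL1 to WL2, and limma without filter 782 and 167. At WL2 against WL1, 1668 were called with no filter and 1051 with the 2 phases alone. With 1 library left out, all genes numbered 512 to 1500, 743 to 1688 and 37 to 1351.

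With *Col1a1*, *Col1a2* and *Col3a1* in place of the 14 chains, a choice made after the data were seen, the ratio to the chains at WL2 over that at Pre went to 1.05 for *Plod1*, 2.08 for *Plod2*, 1.29 for *Plod3*, 2.27 for *P4ha1*, 1.70 for *P4ha2* and 1.59 for *Pcolce*, and turned to 0.977 for *Bmp1*, 0.834 for *Adamts2*, 0.736 for *Serpinh1* and 0.875 for the sum of the 10 genes.

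Same-numbered libraries did not deviate together (correlations from -0.233 to 0.0913), so the numbers were not taken to pair them. The replicate block gave 844 genes at WL1 against Pre, and from WL1 to WL2 330 genes, 1 procollagen gene and 0 other maturation genes. Under the block *Plod3* lost its call at WL2 against Pre (adjusted p = 0.0665 by edgeR with Benjamini-Hochberg adjustment), as it did with no filter (0.0602), without scaling factors (-0.26, 0.111) and with the 2 phases alone (0.0569), and *Plod1* lost its call at WL2 against WL1 (0.0597).

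No value past the threshold changed sign. *Pcolce* at WL1 against Pre was -0.0124 with DESeq2, -0.0267 with the filter on 3 libraries, -0.0125 with RLE, -0.0328 with upper quartile scaling, -0.0084 with the block, -0.0261 and -0.0274 with limma at either pseudocount, -0.0261 without filter and -0.0142 with the 2 phases alone, and at WL2 against Pre 0.0275 without scaling. *P4ha2* at WL2 against Pre was -0.0027 with DESeq2, -0.0061 with the filter on 3 libraries and -0.0022 with RLE, and *Plod3* at WL2 against WL1 0.0075 with upper quartile scaling. *P3h4* at WL1 against Pre was 0.0735 without scaling and 0.00084 with the block. *Adm* at WL2 against WL1 was 0.0071 with DESeq2 and RLE, 0.0137 with the filter on 3 libraries, 0.0497 with upper quartile scaling, 0.0375 without scaling, and 0.0154 and 0.0165 with limma at either pseudocount (0.0154 without filter). With 1 library left out, the ranges of the values that crossed 0 were -0.0569 to 0.157 for *Plod2*, -0.235 to 0.0957 for *Pcolce* and -0.0948 to 0.152 for *Adm* from WL1 to WL2, -0.0837 to 0.0970 for *P4ha2* at WL2 against Pre, and -0.205 to 0.116 for *Pcolce* and -0.199 to 0.0947 for *P3h4* at WL1 against Pre. With WL1 set against the average of Pre and WL2, they were -0.0175 to 0.192 for *Plod2*, -0.108 to 0.169 for *P4ha1*, -0.15 to 0.175 for *Pcolce* and -0.137 to 0.0902 for *Bmp1*.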
